A study of Mus musculus with 12 samples.

Results

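A set of 70 genes, called members below, was transcribed in 2 groups of libraries from Lewis lung carcinoma (LLC) tumours and was at or near 0 counts in another. A member had a mean of at least 5 CPM (a gene's counts scaled to a fixed library total) in NC and in Blank and a mean below 0.5 CPM in SFD@M. Of 19212 genes in the table, 9827 met the NC and Blank thresholds, 81 also met the SFD@M threshold, and 70 remained after 5 Hox, 3 Rhox and 3 Y-linked genes among them were set aside. Col genes, Uty, Etv4 and Cdkn2a, which the rule also sets aside, did not meet the thresholds. The levels in NC, SFD@M and Blank chose the members, so those levels are given as a description. The levels in OTUB1_KD did not enter the choice.

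Polyadenylated RNA of 12 mouse samples labelled lung cancer was sequenced, with 3 libraries in each of 4 groups. LLC cells are a mouse lung carcinoma line, grown in culture medium with serum before they were used to make orthotopic tumours in the lung. OTUB1_KD tumours came from LLC cells given a lentivirus that knocks down OTUB1, which encodes a deubiquitinating enzyme, and NC tumours came from LLC cells given a negative control lentivirus and are labelled WT. SFD@M samples are labelled WT and came from animals given SFD@M, which the labels do not describe, and Blank samples are labelled WT and came from animals given physiological saline. The sources used here do not give the strain, age or sex of the animals. No label ties the 3 libraries of a group to different animals, and p-values therefore reflect a spread between libraries that may be technical.

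Carcinoma cells that grow in a lung stand among epithelial, endothelial, stromal and blood cells of the host, and RNA taken from the tissue is a mixture of all of them. A gene that is silent in the host tissue and active in the carcinoma cells reports on the carcinoma cells alone. Tumour lines often transcribe genes that normally belong to the embryo or the germline.

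Totals were 16062806 to 18028828 counts per library. Otub1 was at 58.6, 49.3 and 71.2 CPM in OTUB1_KD replicates 1, 2 and 3, against 76.2, 73.9 and 69.8 CPM in NC, so replicate 3 lay inside the NC range and the groups overlapped. In SFD@M, labelled WT, Otub1 was at 47.3, 45.5 and 48.1 CPM, against 78.0, 73.3 and 73.5 CPM in Blank. Whether the levels in OTUB1_KD replicates 1 and 2 reflect the knockdown was not tested. The groups are called by their labels throughout. The 6 alveolar epithelial markers (Sftpc, Sftpb, Sftpa1, Ager, Hopx, Lamp3) summed to 10343, 23335 and 25601 CPM in OTUB1_KD, against 15.3 to 18.7 CPM in NC, and to 22985 to 25360 CPM in SFD@M, against 11.0 to 11.7 CPM in Blank. The 5 leukocyte markers (Ptprc, Csf1r, Cd3e, Cd79a, Cd68) summed to 508 to 569 CPM in OTUB1_KD, against 3.30 to 3.45 CPM in NC, and to 375 to 410 CPM in SFD@M, against 1.05 to 1.86 CPM in Blank. All of these markers had counts in OTUB1_KD and SFD@M, whereas Lamp3 and Cd3e were at 0 counts in NC and Sftpa1 and Cd3e in Blank. Sftpc alone was at 0 to 0.0623 CPM in NC, against 6755 to 16397 CPM in OTUB1_KD. Airway markers (Scgb1a1, Cyp2f2, Scgb3a2) summed to 0.415 to 0.832 CPM in NC, against 12213 to 31432 CPM in OTUB1_KD. Endothelial markers (Pecam1, Cdh5, Flt1, Kdr) summed to 3.57 to 4.09 CPM in NC, against 741 to 1581 CPM in OTUB1_KD. In Blank the airway and endothelial sums were at most 0.581 and 2.27 CPM. NC and Blank libraries therefore carried alveolar, airway, endothelial and leukocyte markers of the labelled tissue only at low levels. The fibroblast markers Pdgfra, Dcn and Lum summed to 385 to 781 CPM in OTUB1_KD, against 231 to 239 CPM in NC, and to 638 to 873 CPM in SFD@M, against 238 to 248 CPM in Blank. In bulk samples, fewer cells of a type and less RNA per cell cannot be told apart.

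The label of a set confined to the carcinoma line held to a limit. The members summed to 16.4, 11.7 and 13.6 CPM in the SFD@M libraries, which is 0.713% to 0.995% of the NC mean, against 1720, 1731 and 1704 CPM in Blank. Zic2, Gm14139, Gm15085 and Ott had 0 counts in all SFD@M libraries, where 3 counts correspond to about 0.176 CPM per library. A further 18 members had 1 to 3 counts over the 3 libraries, and 48 had more, up to 25. Cultured LLC cells alone and lung without tumour were not analysed here. The name therefore rests on the thresholds and is not shown to hold for each member. Just inside the SFD@M threshold were Rmi2 and Tubg2 at 0.490 CPM, and just outside it were Cenps at 0.510, Gm42517 at 0.529 and Fsbp at 0.530 CPM. Just inside the NC and Blank thresholds were Slfn10-ps and Npas3, both at 5.02 CPM in NC, and Csn3 at 5.06 CPM in Blank. Just outside were Plac1 at 4.96 and S100a3 at 4.90 CPM in Blank and Pramel34 at 4.46 CPM in NC.

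RefSeq annotates 69 members as protein-coding, and 11 members have provisional symbols. Corrected for transcript length, their NC means ran from 1.28 to 226 TPM (a length-corrected share of the transcripts), with a median of 9.87 TPM, and 33 were at 10 TPM or more. Gm773 (226 ± 18.04 TPM in NC, SD, n = 3) and Gm364 (211 ± 1.93 TPM) led, followed by Mgarp (143 ± 5.90 TPM), a mitochondrial protein, and Gm42346 (60.02 ± 4.75 TPM). Fosl1 (47.0 ± 2.05 TPM), Xlr3c (46.5 ± 1.51 TPM), Pla2g5 (37.4 ± 0.767 TPM), Gm15097 (33.4 ± 0.581 TPM) and Raet1d (30.6 ± 1.501 TPM) were also among the 10 members chosen for the highest mean TPM over NC and Blank. The libraries of NC and of Blank were close among themselves. The median coefficient of variation of CPM over the members was 106% in OTUB1_KD, against 6.32% in NC, and it was 4.83% in Blank.

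**Figure D1:**
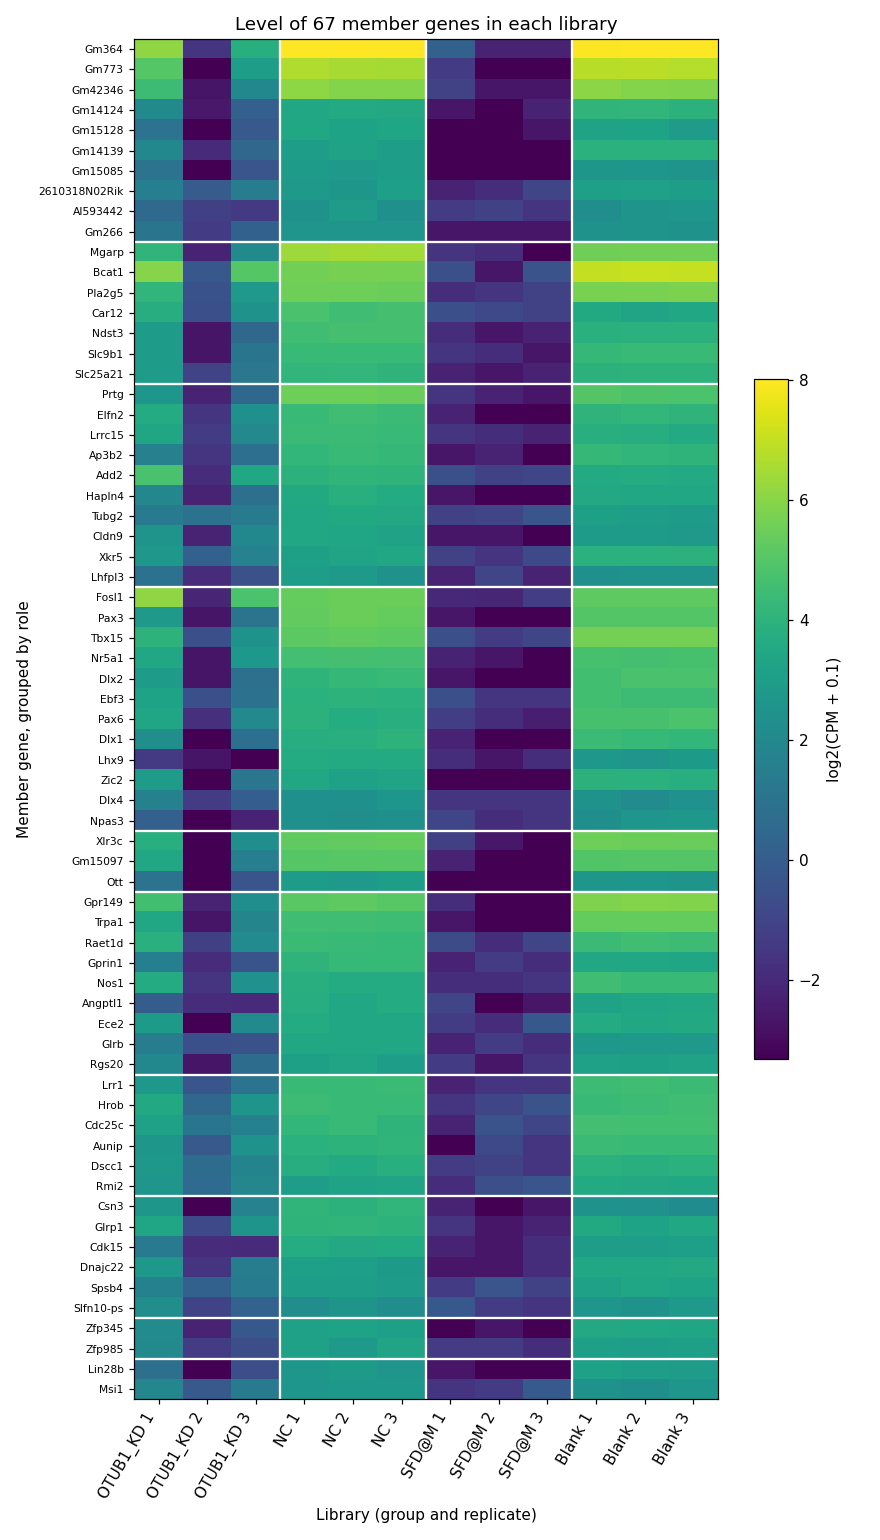
Level of 67 of the 70 members (rows, grouped by role) in each of the 12 libraries (columns), as log2(CPM + 0.1) on the colour scale. NC and Blank columns are uniformly high and SFD@M columns low, which is how the members were chosen, and the 3 OTUB1_KD columns differ from one another.

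The 3 libraries labelled OTUB1_KD stood far apart. The members summed to 729, 25.3 and 268 CPM in OTUB1_KD replicates 1, 2 and 3, against 1645, 1655 and 1638 CPM in NC. Replicate 1 was highest for 70 of 70 members, and replicate 2 was below both others for 66. Taken as a percentage of its own NC mean, the median member stood at 39.6% in replicate 1, 1.25% in replicate 2 and 14.8% in replicate 3. The members' quartiles stood at 26.7% and 57.5% in replicate 1, at 0.233% and 3.38% in replicate 2, and at 8.58% and 25.9% in replicate 3. At least 1 CPM was reached by 68, 8 and 55 members, and 0, 13 and 1 members had 0 counts.

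Other transcripts near 0 in SFD@M had the OTUB1_KD libraries in the same order. The Y-linked genes Ddx3y, Eif2s3y, Kdm5d and Uty summed to 127, 0.636 and 24.5 CPM in OTUB1_KD, against 340 to 348 CPM in NC. That is 36.9% of the NC mean in replicate 1 (95% exact Poisson interval 35.4 to 38.4), 0.184% in replicate 2 (0.0919 to 0.329) and 7.08% in replicate 3 (6.43 to 7.77). These intervals take in counting error of the OTUB1_KD library alone, with the NC mean held fixed. Copies made by PCR were not marked, so the intervals may be too narrow. The 5 Hox genes that met the same thresholds stood at 30.4%, 0.452% and 8.03% of their NC mean, the 3 Rhox genes at 28.3%, 0.0217% and 14.1%, and Etv4, which missed the SFD@M threshold at 0.588 CPM, at 45.6%, 0.744% and 20.1%. The cell division genes did not all keep this order: Top2a stood at 29.3%, 4.61% and 10.4%, but Mki67 at 29.8%, 10.3% and 6.84%, with replicate 2 above replicate 3. Both also had counts in SFD@M, at 5.40 to 29.3 CPM for Top2a and 8.16 to 32.9 CPM for Mki67. Alveolar markers were lowest in replicate 1, the library in which the members were highest. They were highest in replicate 3 (10343, 23335 and 25601 CPM), not in replicate 2. Markers of airway (Scgb1a1, Cyp2f2, Scgb3a2) and endothelium (Pecam1, Cdh5, Flt1, Kdr) were also lowest in replicate 1. Leukocyte markers were lowest in replicate 2 (524, 508 and 569 CPM) and fibroblast markers in replicate 3 (717, 781 and 385 CPM). The part of the share of host RNA in these levels was not tested.

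**Figure D2:**
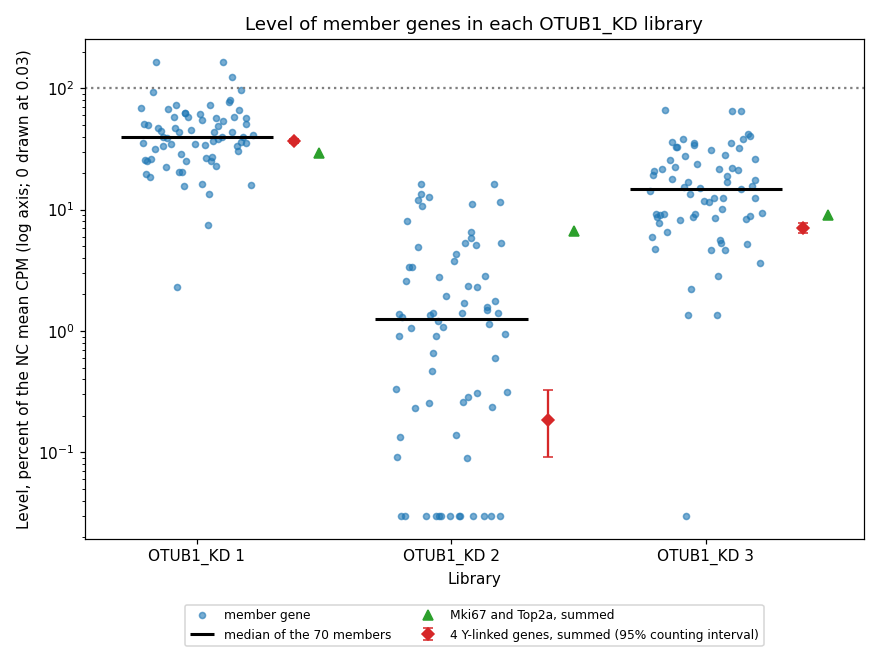
Level of each member in the 3 OTUB1_KD libraries (x axis) as a percentage of its NC mean CPM (y axis, log scale, 0 drawn at 0.03). Black lines are the medians of the 70 members (39.6%, 1.25% and 14.8%), red diamonds the 4 Y-linked genes with 95% counting intervals, and green triangles Mki67 and Top2a summed (29.5%, 6.69% and 9.09%). Members spread widely around the Y-linked value within each library.

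Within a library the members did not all stand at one share of NC. In replicate 1 the counting interval of 28 members lay above that of the Y-linked genes and that of 15 lay below it. In replicate 3 it lay above for 43 members and below for 7, and in replicate 2 it lay above for 31 and below for 0. The 0 in replicate 2 was largely set by depth. The Y-linked interval there began at 0.0919%, whereas members with 0 counts had upper limits of 0.224% (Gm773) or more. In that library 37 members had 3 counts or fewer, so nothing is read from its split. Above in both replicate 1 and replicate 3 were 27 members, and below in both were 7, namely Gm364, Mgarp, Prtg, Gprin1, Lhx9, Angptl1 and Cdk15. The split was not made over all genes, and the intervals of the 70 members were not adjusted for their number. These counts and names are therefore a description. The median ratio of replicate 3 to replicate 1 was 0.347 over the members, against 0.192 for the Y-linked genes.

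Fosl1, Add2 and Bcat1 had the highest shares in replicates 1 and 3 and were the 3 members at or above their NC mean in replicate 1. In replicate 2 Fosl1 at 0.308% and Add2 at 1.06% lay below the members' median of 1.25%. Fosl1 encodes a subunit of the AP-1 transcription factor and had 71.5, 0.133 and 27.8 CPM in OTUB1_KD, against 40.9, 43.9 and 44.5 CPM in NC. Add2 encodes beta-adducin, a protein of the membrane skeleton, and had 27.0, 0.173 and 10.9 CPM in OTUB1_KD, against 15.8, 16.8 and 16.6 CPM in NC. Bcat1, a cytosolic aminotransferase of branched-chain amino acids, had 62.3, 0.751 and 32.9 CPM in OTUB1_KD, against 48.8, 51.4 and 51.5 CPM in NC. For each of the 3, replicate 1 lay above every NC library and the other replicates below, so the groups overlapped. Nos1, the neuronal nitric oxide synthase, stood at 96.6% of its NC mean in replicate 1, and Raet1d, a ligand of the killer cell receptor NKG2D, at 72.9%.

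Lhx9 and Angptl1 had the lowest shares in replicates 1 and 3, whereas in replicate 2 Angptl1 at 1.41% lay above the members' median of 1.25%. Lhx9, a LIM homeobox factor of gonad and limb development, had 0.286, 0.0578 and 0 CPM in OTUB1_KD, against 12.6, 12.3 and 12.1 CPM in NC. The level in replicate 1, 2.32% of the NC mean, rests on 5 counts (95% exact Poisson interval 0.753% to 5.41%), and for the 0 counts in replicate 3 the upper limit of that interval is 1.66%. Angptl1, a secreted angiopoietin-like protein, had 0.915, 0.173 and 0.166 CPM in OTUB1_KD, against 13.2, 11.1 and 12.7 CPM in NC. All OTUB1_KD libraries lay far below all NC libraries for both genes, and their SFD@M levels of up to 0.177 and 0.411 CPM were in the same low range. Prtg at 13.6%, Ap3b2 at 15.5% and Gprin1 at 15.9% of the NC mean in replicate 1 followed.

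The promoters of the members at these ends are shown because these genes stood at opposite ends of the shares of NC. The 300 bases run from 250 before to 50 after the annotated start in RefSeq GRCm38.p6, a build other than that of the counts, and capitals mark CpG dinucleotides. Add2 lies on the plus strand at chr6:86028431-86028730, and its window held 11 CpG. Lhx9 lies on the minus strand at chr1:138842395-138842694, and its window held 6.

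Add2: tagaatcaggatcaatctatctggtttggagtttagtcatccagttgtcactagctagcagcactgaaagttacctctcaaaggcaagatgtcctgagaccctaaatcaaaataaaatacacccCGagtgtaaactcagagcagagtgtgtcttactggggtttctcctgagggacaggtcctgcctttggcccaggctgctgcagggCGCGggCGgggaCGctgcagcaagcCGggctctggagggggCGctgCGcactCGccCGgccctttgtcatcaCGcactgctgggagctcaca
Lhx9: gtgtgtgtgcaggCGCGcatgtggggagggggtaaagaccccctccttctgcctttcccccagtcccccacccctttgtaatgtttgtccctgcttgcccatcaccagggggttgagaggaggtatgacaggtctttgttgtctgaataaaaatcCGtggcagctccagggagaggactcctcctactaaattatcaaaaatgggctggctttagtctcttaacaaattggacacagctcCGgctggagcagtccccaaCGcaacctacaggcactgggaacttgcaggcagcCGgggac

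RefSeq promoter windows were at hand for 45 members. An observed to expected CpG ratio of at least 0.6 was found in 17 of the 45 (37.8%), against 36.5% of all 27025 windows. The AP-1 type motif TGANTCA, searched on both strands (it reads the same on either), occurred in 5 members' windows (11.1%), against 7.93% of all windows. The letters TATAAA on either strand occurred in 1 member's window (2.22%), against 14.2% of all. A motif match is a description of the letters in the window.

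**Figure D3:**
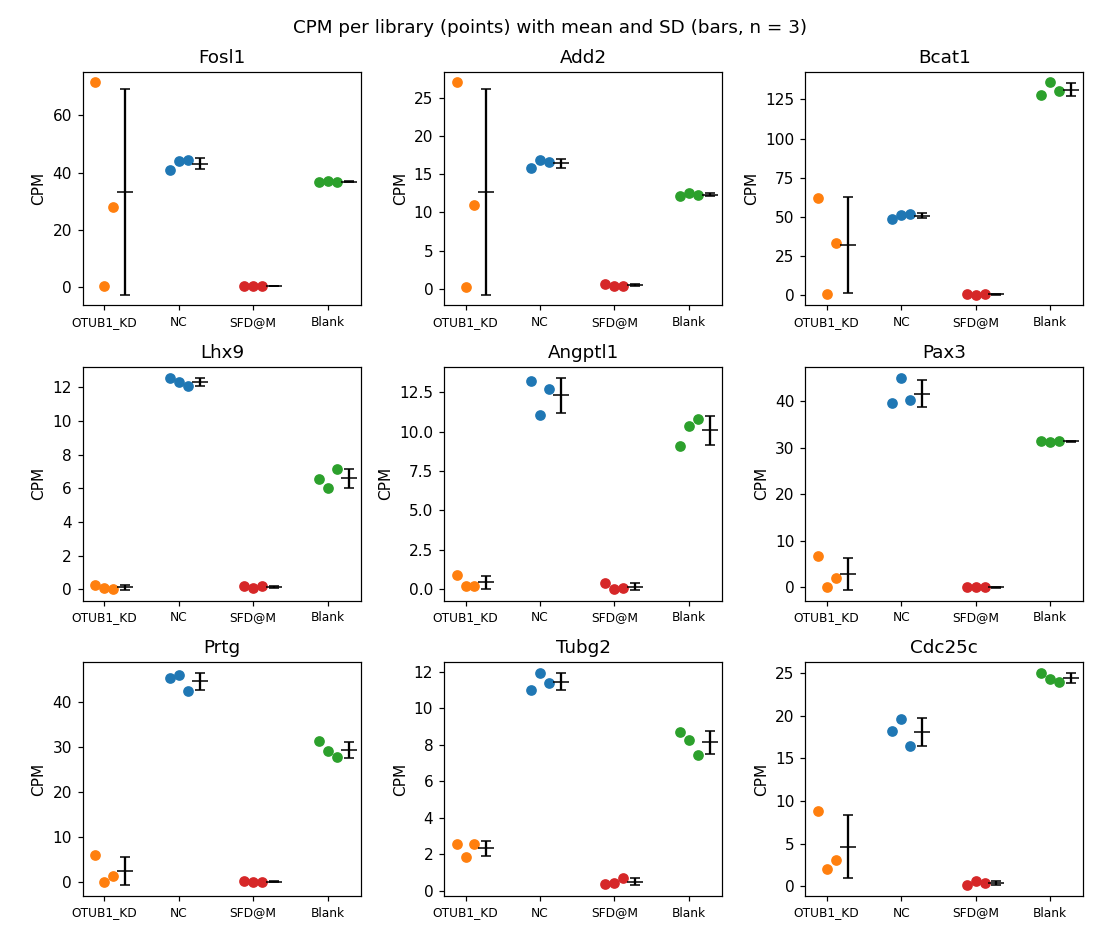
CPM of 9 members in each library (points) with the group mean and SD (bars, n = 3), with OTUB1_KD left of NC and SFD@M left of Blank. Replicate 1 of OTUB1_KD exceeds the NC libraries for Fosl1, Add2 and Bcat1, and all OTUB1_KD libraries are near 0 for Lhx9 and Angptl1.

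In the test of OTUB1_KD against NC, 40 of the 70 members were lower, 0 were higher and 30 did not pass (edgeR quasi-likelihood test, Benjamini-Hochberg adjusted p below 0.05). Over all 14785 genes tested, 25.8% were called lower and 39.9% higher, and among the genes at 5 CPM or more in NC and Blank the shares were 35.7% and 20.4%. All 70 log2 fold changes were below 0, so 0 were higher at an unadjusted p as well, and DESeq2 and limma also called 0 higher. The NC and SFD@M levels took part in choosing the members, and OTUB1_KD carried alveolar and leukocyte markers far above NC, as SFD@M did against Blank. The choice thus favoured lower levels in OTUB1_KD. Nothing is read from this count, from the shared direction or from its return under other methods. The median log2 fold change was -2.41 over the members and 0.16 over all genes tested, and the members ranged from -6.74 for Lhx9 to -0.43 for Add2. For 65 members all OTUB1_KD libraries lay below all NC libraries, against 32.6% of all genes tested, and for the other 5 the groups overlapped. The choice favoured this count as well, so nothing is read from it.

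The number of calls turned on single libraries, and 16 of the 40 calls were made again whichever library was left out. Without OTUB1_KD replicate 1 the count was 63 and the median log2 fold change -3.70, and without OTUB1_KD replicate 3 the count was 16. Without NC replicate 1, 2 or 3 it was 23, 22 or 22. With limma on log2(TPM + 1) it was 66. The 16 members were Lhx9, Npas3, Angptl1, Glrb, Gprin1, Prtg, Lhfpl3, Ap3b2, Tubg2, Lrr1, Spsb4, Cdk15, Gm266, Gm15128, AI593442 and 2610318N02Rik, chosen here after their values were seen.

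Transcription factors made up 12 members, a grouping by role made after the values were seen, as were the other groups by role, so their counts of calls are a description and are read beside the 25.8% and 35.7% above. They are Fosl1, Pax3, Tbx15, Nr5a1, Dlx2, Ebf3, Pax6, Dlx1, Lhx9, Zic2, Dlx4 and Npas3, several of them patterning factors of the embryonic nervous system, neural crest, limb or gonad. In OTUB1_KD against NC 6 of the 12 were lower and 6 did not pass, and their median share of NC was 43.9%, 0.310% and 13.2% in replicates 1, 2 and 3. Lhx9 fell by 6.74 ± 0.67 on the log2 scale (SE, edgeR adjusted p = 0.00020). Npas3, a basic helix-loop-helix factor of the brain, had 1.03, 0 and 0.111 CPM in OTUB1_KD, against 5.04, 4.87 and 5.16 CPM in NC, and fell by 3.77 ± 0.95 (edgeR adjusted p = 0.011). Neither gene's OTUB1_KD libraries overlapped with NC.

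Pax3, a paired-box factor of neural crest and muscle precursors, had 6.80, 0.0578 and 1.94 CPM in OTUB1_KD, against 39.6, 45.0 and 40.2 CPM in NC. It fell by 3.89 ± 0.98 on the log2 scale (edgeR adjusted p = 0.011, and 0.051 without OTUB1_KD replicate 3). Pax6, a paired-box factor of the eye and brain, had 10.3, 0.195 and 3.95 CPM in OTUB1_KD, against 15.7, 13.1 and 14.1 CPM in NC. Its groups did not overlap, and its log2 fold change of -1.63 ± 0.96 did not pass (edgeR adjusted p = 0.17, and 0.041 without OTUB1_KD replicate 1). The neighbouring genes Dlx1 and Dlx2, homeobox factors of forebrain interneurons, lie side by side in RefSeq GRCm38.p6. Their OTUB1_KD libraries stood in the order that 66 of the 70 members had. Dlx1 had 4.97, 0 and 1.66 CPM and Dlx2 7.60, 0.0578 and 1.72 CPM in OTUB1_KD, against 13.3 to 15.8 CPM for Dlx1 and 16.6 to 20.3 CPM for Dlx2 in NC. The log2 fold changes were -2.74 ± 1.03 for Dlx1 (edgeR adjusted p = 0.050, called, and up to 0.14 without OTUB1_KD replicate 3 or any 1 NC library) and -2.63 ± 1.03 for Dlx2 (edgeR adjusted p = 0.058, not called, and down to 0.0061 without OTUB1_KD replicate 1 or 2).

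Nr5a1 encodes steroidogenic factor 1 of the adrenal and gonad, and had 11.0, 0.0578 and 6.43 CPM in OTUB1_KD, against 24.5, 25.2 and 25.01 CPM in NC. Its log2 fold change of -2.15 ± 1.01 did not pass (edgeR adjusted p = 0.099, and 0.0046 without OTUB1_KD replicate 2). Tbx15, a T-box factor of skeletal development, was lower by the test (log2 fold change -2.38 ± 0.88, edgeR adjusted p = 0.047), and that call was lost without OTUB1_KD replicate 3 or any 1 of the NC libraries, with an adjusted p of up to 0.15.

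Signalling ligands, receptors, channels and their regulators made up 12 members, of which 5 were lower in OTUB1_KD and 7 did not pass. Among the channels, Glrb, the beta subunit of the glycine receptor, had 2.74, 0.578 and 0.610 CPM in OTUB1_KD, against 10.7, 10.9 and 11.1 CPM in NC. It fell by 3.12 ± 0.61 on the log2 scale (edgeR adjusted p = 0.0039), with no overlap. Gprin1, a G protein regulated protein of neurite outgrowth, had 2.92, 0.173 and 0.666 CPM in OTUB1_KD, against 16.6, 19.1 and 19.3 CPM in NC, and fell by 3.93 ± 0.79 (edgeR adjusted p = 0.0045). Angptl1 fell by 4.93 ± 0.61 (edgeR adjusted p = 0.00053). Trpa1, a cation channel opened by irritants, and Gpr149, an orphan receptor, had log2 fold changes of -2.32 ± 1.04 and -1.92 ± 1.13 and did not pass (edgeR adjusted p = 0.086 and 0.17, and 0.019 and 0.018 without OTUB1_KD replicate 1; Trpa1 also passed without replicate 2).

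Surface, adhesion, matrix, trafficking and cytoskeletal proteins made up 10 members, of which 5 were lower and 5 did not pass. Prtg, protogenin, an immunoglobulin superfamily receptor of the embryo, had 6.06, 0.116 and 1.28 CPM in OTUB1_KD, against 45.4, 46.1 and 42.6 CPM in NC. It fell by 4.23 ± 0.95 on the log2 scale (edgeR adjusted p = 0.0070), with no overlap. Ap3b2, a neuronal subunit of the AP-3 vesicle coat, had 2.97, 0.231 and 1.66 CPM in OTUB1_KD, against 18.2, 20.6 and 18.6 CPM in NC, and fell by 3.61 ± 0.69 (edgeR adjusted p = 0.0036).

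Tubg2, a gamma-tubulin, was nearly even over the OTUB1_KD libraries. It had 2.57, 1.85 and 2.55 CPM in OTUB1_KD, against 11.0, 11.9 and 11.4 CPM in NC, which is 22.5%, 16.2% and 22.3% of the NC mean. It fell by 2.36 ± 0.25 on the log2 scale (edgeR adjusted p = 0.00024), and the log2 fold change lay between -2.45 and -2.22 when any 1 library was left out. In SFD@M it had 0.352, 0.412 and 0.707 CPM, so its OTUB1_KD libraries lay between the SFD@M and NC ranges.

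Of 7 metabolic enzymes, transporters and mitochondrial proteins, 5 were lower and 2 did not pass. Mgarp had 17.04, 0.116 and 4.10 CPM in OTUB1_KD, against 82.5, 89.3 and 88.4 CPM in NC, with no overlap, and fell by 3.68 ± 1.11 on the log2 scale (edgeR adjusted p = 0.023, and 0.089 without OTUB1_KD replicate 3). Pla2g5, a secreted phospholipase, had 17.8, 0.636 and 7.04 CPM in OTUB1_KD, against 45.1, 45.6 and 44.0 CPM in NC. Its log2 fold change was -2.46 ± 0.88 (edgeR adjusted p = 0.042, and up to 0.13 without OTUB1_KD replicate 3 or any 1 NC library). Bcat1 and Car12, a carbonic anhydrase of the cell surface, were the 2 that did not pass, at -0.72 ± 1.05 and -2.01 ± 0.84 (edgeR adjusted p = 0.56 and 0.069; Car12 had down to 0.018 without OTUB1_KD replicate 1 or 2). Fosl1 and Add2, named above, had -0.44 ± 1.23 and -0.43 ± 1.08 (edgeR adjusted p = 0.76 and 0.74, not passed), and without OTUB1_KD replicate 2 both turned to 0.14.

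All 6 members of DNA replication, repair and division were lower by the test, and 5 of these calls were lost when 1 library was left out. Their median share of NC was 49.6%, 8.84% and 27.1% in OTUB1_KD replicates 1, 2 and 3. In replicate 2 they ran from 3.37% to 16.2%, against 0.184% for the Y-linked genes. Their SFD@M means were 0.196 to 0.490 CPM. Whether host cells also transcribe these genes was not tested, so the name of the set is not shown to hold for them. Cdc25c, the phosphatase that activates the mitotic kinase CDK1, had 8.86, 2.02 and 3.05 CPM in OTUB1_KD, against 18.2, 19.7 and 16.5 CPM in NC. It fell by 2.03 ± 0.53 on the log2 scale (edgeR adjusted p = 0.013, and 0.055 without OTUB1_KD replicate 3). Dscc1, a clamp loader subunit of sister chromatid cohesion, had 6.57, 1.503 and 3.38 CPM in OTUB1_KD, against 13.4, 12.0 and 13.8 CPM in NC, and fell by 1.84 ± 0.49 (edgeR adjusted p = 0.015, and 0.058 without OTUB1_KD replicate 3). Rmi2, of the BLM helicase complex, had 5.89, 1.45 and 3.72 CPM in OTUB1_KD, against 7.97, 9.09 and 9.66 CPM in NC. Its log2 fold change was -1.34 ± 0.48 (edgeR adjusted p = 0.042, and up to 0.10 without OTUB1_KD replicate 3 or any 1 NC library). None of the 3 overlapped with NC. Lrr1, a ubiquitin ligase adaptor of replisome unloading, fell by 2.83 ± 0.70 (edgeR adjusted p = 0.011, and up to 0.0496 with any 1 library left out). Hrob and Aunip, the other 2, had log2 fold changes of -1.77 ± 0.65 and -1.96 ± 0.64 (edgeR adjusted p = 0.046 and 0.030, and up to 0.13 and 0.068 without OTUB1_KD replicate 3 or any 1 NC library).

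Both RNA-binding members were lower by the test. Lin28b, the repressor of let-7 microRNA maturation, had 1.72, 0 and 0.555 CPM in OTUB1_KD, against 6.41, 7.13 and 5.93 CPM in NC, and fell by 3.15 ± 0.92 on the log2 scale (edgeR adjusted p = 0.020, and up to 0.075 without OTUB1_KD replicate 3, NC replicate 1 or NC replicate 2). Msi1, the neural stem cell protein Musashi, had 3.72, 0.809 and 2.44 CPM in OTUB1_KD, against 6.16, 6.54 and 6.52 CPM in NC, and fell by 1.52 ± 0.51 (edgeR adjusted p = 0.033, and up to 0.083 without OTUB1_KD replicate 3 or any 1 NC library). Neither overlapped with NC.

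**Figure D4:**
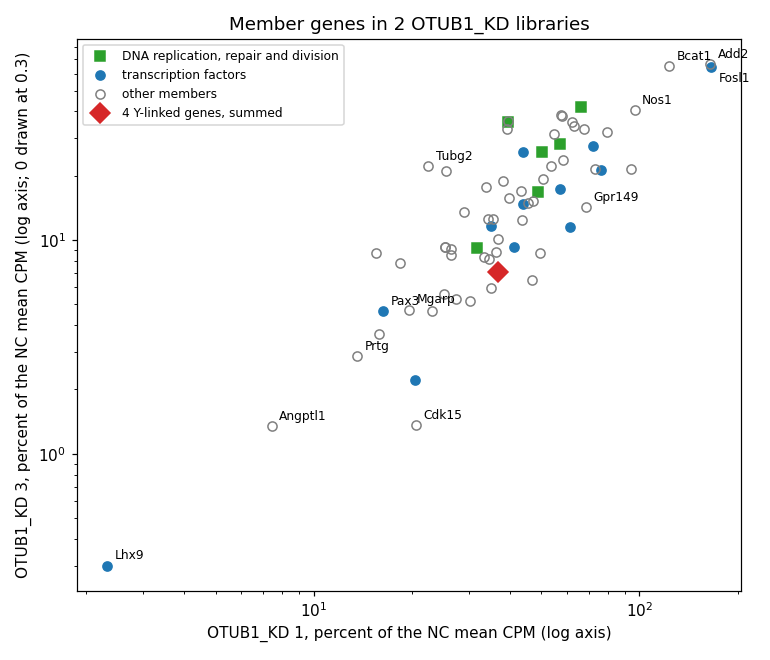
Each member's CPM in OTUB1_KD replicate 1 (x axis) and replicate 3 (y axis) as a percentage of its NC mean, on log axes (0 drawn at 0.3). Of the 70 members 40 lie to the right of the red diamond of the 4 Y-linked genes (36.9% and 7.08%) and 56 lie above it, with Lhx9 and Angptl1 at the low end and Fosl1, Add2 and Bcat1 at the high end.

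The X-linked germline families were represented by Xlr3c, Ott and Gm15097, whose synonym is Ott-like. Xlr3c, of a family linked to lymphoid and germ cells, had 13.9, 0 and 4.87 CPM in OTUB1_KD, against 37.8, 38.8 and 40.5 CPM in NC, without overlap. Its log2 fold change of -2.70 ± 1.11 did not pass (edgeR adjusted p = 0.067, and 0.011 at the lowest without OTUB1_KD replicate 1 or 2). Ott, named for transcription in ovary and testis, had 1.88, 0 and 0.691 CPM in OTUB1_KD, against 7.36, 6.84 and 8.11 CPM in NC. Its counts equalled those of Gm15085 in 12 of 12 libraries, so the split of reads between these copies is uncertain and they give 1 measurement under 2 names. Both fell by 3.18 ± 0.92 on the log2 scale (edgeR adjusted p = 0.020, and up to 0.074 without OTUB1_KD replicate 3 or NC replicate 3). In RefSeq GRCm38.p6 only 1 protein-coding gene lies between Ott and Gm15085, 1 between Gm15085 and Gm15097, and 5 between Gm15128 and Ott, so 4 members share this stretch of the X chromosome.

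The promoter windows of Ott and Gm15085 are shown because they let a reader see how alike these copies are. They differ at 5 of 300 bases (98.3% identity), which are in capitals. Ott is at chrX:149097702-149098001 and Gm15085 at chrX:149447367-149447666 of GRCm38.p6, both on the plus strand.

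Ott: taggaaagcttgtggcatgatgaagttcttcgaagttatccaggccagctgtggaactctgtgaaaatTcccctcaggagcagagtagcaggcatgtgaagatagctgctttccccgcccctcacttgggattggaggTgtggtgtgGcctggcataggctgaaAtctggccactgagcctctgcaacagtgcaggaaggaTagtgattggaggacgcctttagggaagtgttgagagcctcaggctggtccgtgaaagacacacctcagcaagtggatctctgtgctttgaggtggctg
Gm15085: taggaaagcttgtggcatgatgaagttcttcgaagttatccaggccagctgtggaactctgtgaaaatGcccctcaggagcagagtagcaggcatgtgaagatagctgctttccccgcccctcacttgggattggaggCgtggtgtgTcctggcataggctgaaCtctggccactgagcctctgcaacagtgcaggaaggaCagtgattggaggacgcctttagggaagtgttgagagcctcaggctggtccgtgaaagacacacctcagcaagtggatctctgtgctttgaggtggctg

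A second run of neighbours held Gm14139 and Gm14124, with 1 protein-coding gene between them, and Gm14124 and the zinc-finger gene Zfp345, with 3 between. Their log2 fold changes in OTUB1_KD against NC were -2.32 ± 0.81, -2.78 ± 0.95 and -2.39 ± 0.94. These lay near the median of -2.41 over all members, so nothing about neighbours is read from them. They lay on either side of the threshold: Gm14139 and Gm14124 passed (edgeR adjusted p = 0.040 and 0.036, and up to 0.12 for both without OTUB1_KD replicate 3 or any 1 NC library) and Zfp345 did not (edgeR adjusted p = 0.058, and 0.0021 without OTUB1_KD replicate 1). Of the 10 predicted or uncharacterised members, 7 were lower and 3 did not pass. The abundant Gm364 had 70.6, 0.231 and 13.6 CPM in OTUB1_KD, against 258, 260 and 256 CPM in NC, and did not pass despite groups that lay far apart (log2 fold change -3.26 ± 1.33, edgeR adjusted p = 0.065, and 0.014 at the lowest without OTUB1_KD replicate 1 or 2). Of 6 other named genes, Spsb4, an adaptor of ubiquitin ligases, and Cdk15, a cyclin-dependent kinase, were lower, and Csn3, Glrp1, Dnajc22 and Slfn10-ps did not pass.

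Broader gene lists placed these members among their families. Of 346 developmental transcription factors and regulators outside the Hox group, 193 were tested in OTUB1_KD against NC, of which 53 were lower and 93 higher, against 25.8% lower and 39.9% higher over all genes, with a median log2 fold change of 0.48. Of that list 88 genes met the NC and Blank thresholds and 10 were members (11.4%), against 0.712% of all genes at those thresholds. Of the germline and cancer-testis list, 30 met those thresholds and 2 were members (6.67%), and of 71 tested 22 were lower and 29 higher. Of ion channels and neurotransmitter receptors, 71 met them and 4 were members (5.63%), and of 272 tested 38 were lower and 185 higher. Nearer to the share of all genes were neuronal and synaptic genes, with 1 member of 96 at those thresholds (1.04%), metabolic enzymes and solute carriers with 5 of 322 (1.55%), surface, adhesion and matrix proteins with 4 of 253 (1.58%), and ligands and receptors of WNT, FGF, TGF-beta and related signalling with 2 of 96 (2.08%). Of the neuronal and synaptic genes 264 were tested, of which 53 were lower and 152 higher, and of the metabolic list 610, of which 112 were lower and 302 higher. Of the surface list 626 were tested, of which 99 were lower and 391 higher, and of the signalling list 296, of which 39 were lower and 202 higher. Of zinc-finger genes with Zfp, Zscan or Zkscan symbols, 282 met the thresholds and 2 were members (0.709%), and of 391 tested 114 were lower and 94 higher. Of imprinted genes 0 of 16 were members, and of 34 tested 10 were lower and 18 higher; 40 members stood in no list. The lists were read with results of these data known, and these shares are a description.

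The transcript that led in NC also led in Blank and in replicate 1 of OTUB1_KD for 63 of the 70 members, of which 23 have a single transcript in the table. Gprin1, Npas3, AI593442, Glrb, Trpa1 and Ebf3 were among the exceptions. For Trpa1 the leading NC transcript held 27.4% of the gene's counts in OTUB1_KD replicate 1 and 44.0% in Blank, against 51.6% in NC. These shares are estimates that divide reads between overlapping transcripts.

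NC and Blank, the 2 groups in which members were required to be present, were also set against each other. Both groups' levels took part in choosing the members, though not which of them was higher, so the calls are given only beside the share over all genes. The groups belong to separate experiments and differ in the lentivirus and the saline, so experiment and group cannot be told apart, and this comparison shares its NC libraries with the one above. In Blank against NC 25 of the 70 members were lower, 25 were higher and 20 did not pass (edgeR, adjusted p below 0.05), against 37.2% lower and 37% higher over all 12087 genes tested, and 34.2% lower and 42.4% higher over those at 5 CPM or more. In Blank all libraries lay below all NC libraries for 28 members and above for 26, against 37.6% and 37.7% of all genes, so the members' shares were near the background. Of the 50 calls, 41 were made again whichever library was left out.

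Bcat1 differed most upward, with 128, 136 and 130 CPM in Blank, against 48.8, 51.4 and 51.5 CPM in NC (log2 fold change 1.37 ± 0.04, SE). Pax6 had 26.1, 26.6 and 28.3 CPM in Blank, against 15.7, 13.1 and 14.1 CPM in NC (0.92 ± 0.07), and Gm14139 (0.84 ± 0.09), Trpa1 (0.83 ± 0.06) and Gpr149 (0.76 ± 0.05) followed. Csn3, kappa-casein, a milk protein, differed most downward, with 5.35, 5.28 and 4.55 CPM in Blank, against 16.9, 15.7 and 17.8 CPM in NC (-1.73 ± 0.10). None of these groups overlapped. Car12 (-1.21 ± 0.08), Lhx9 (-0.90 ± 0.10), Mgarp (-0.85 ± 0.04) and Gprin1 (-0.80 ± 0.08) were next.

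**Figure D5:**
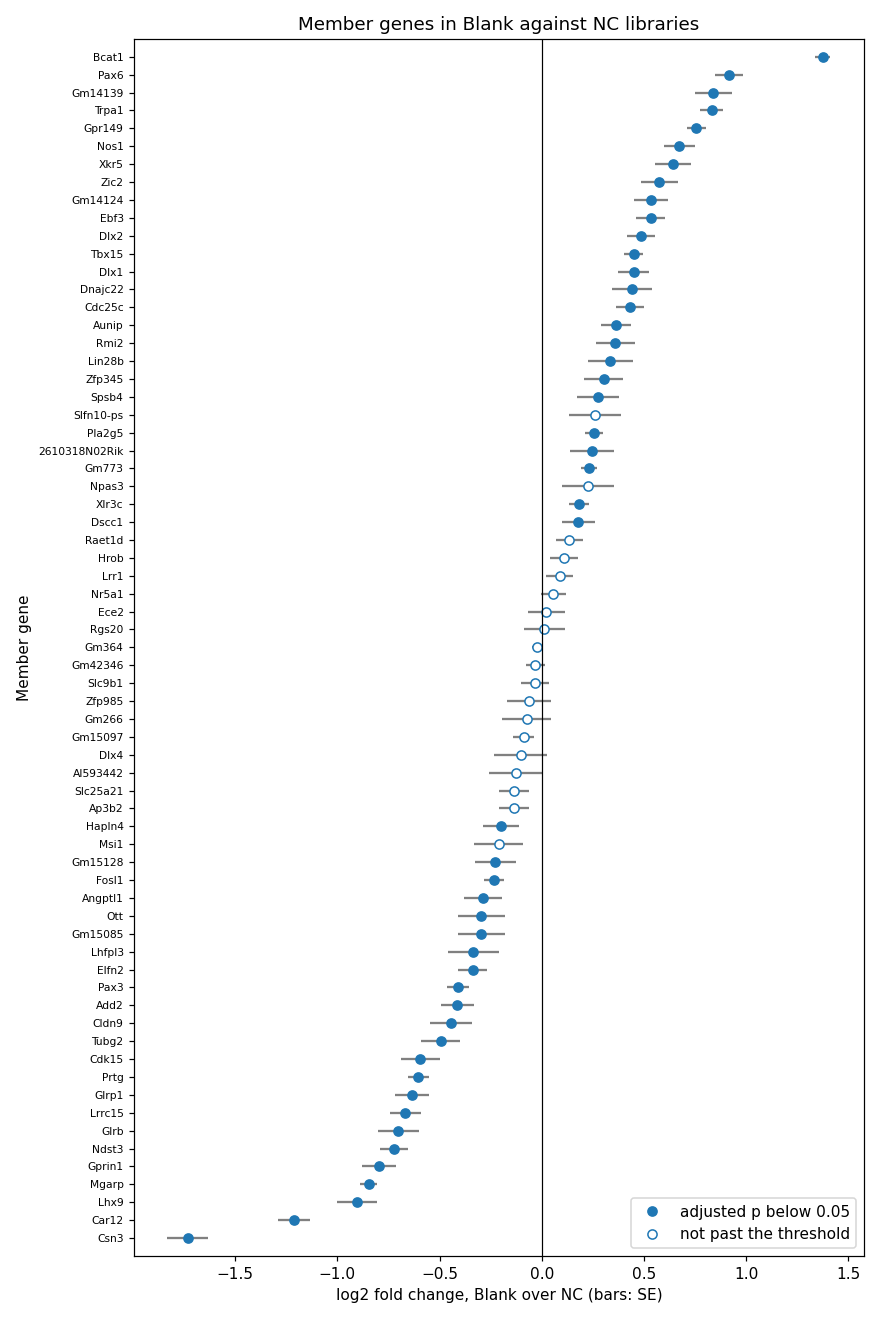
Log2 fold change of 67 of the 70 members in Blank over NC (x axis) with its standard error (bars), sorted from highest to lowest. Filled points passed the adjusted p threshold of 0.05: 25 of those shown were higher, up to Bcat1 at 1.37, and 23 lower, down to Csn3 at -1.73.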

How the data were processed

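The authors deposited 1 table of 70659 transcripts. Per the file headers it holds read counts, which by their values are expected counts that need not be whole, and TPM, a length-corrected share, beside scaled values not used here. Per the submitters' processing notes, Bowtie2, RSEM 1.3.1, DESeq2 1.4.5 and GRCm39 were used, with no role given. No source used here gives the strand handling, so overlapping, antisense and near-identical genes may share reads. All per-sample columns carried the code of a sample, and groups came from titles and treatment labels; the Blank titles carry codes beginning with KD.

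Expected counts were summed per Entrez gene, of which 19155 of 19212, and all 70 members, were named from RefSeq GRCm38.p6. Levels are CPM of library totals. Each comparison of 3 against 3 libraries was fitted over all genes with counts rounded to whole numbers in edgeR 4.0.16 (R 4.3.3; filterByExpr, TMM factors, robust quasi-likelihood test), with Benjamini-Hochberg adjustment and a threshold of 0.05, and SE was taken from the test statistic. SFD@M against Blank was not tested, since it chose the members. The fit was also run on simulated counts in which a small set of genes was changed. Far more genes were called in OTUB1_KD against NC, so that simulation does not cover a change this wide. Alternatives were DESeq2 1.42.0 (test and size factors), limma 3.58.1 on log2(TPM + 1), total counts, no filter, a replicate block, other thresholds and leaving out each library.

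The members and lists were chosen with earlier results of these data known. Named members were the 10 highest in TPM, the 5 highest and 5 lowest shares of NC in OTUB1_KD replicate 1 at 10 CPM or more in NC, the 5 largest called differences each way in Blank against NC, the 4 highest of each list and those nearest the thresholds; others were named after their values were seen. The values of 3 members are not reported here. Intervals are exact Poisson limits at 95%.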

Additional observations from a re-analysis of the deposited data

How the results depend on the processing

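The count of members depended on the thresholds: 123 with SFD@M below 1 CPM, 121 with 2 CPM in NC and Blank, 42 with 10 CPM, 47 with SFD@M below 0.25 CPM, 49 with the thresholds met in every library, 71 with TMM factors, and 64 to 75 with 1 library left out. Members called lower in OTUB1_KD against NC numbered 40, against 66 with limma on log2(TPM + 1), 47 with DESeq2, 33 with total counts and 16 to 63 with 1 library left out, and 0 were called higher in each of these. The median log2 fold change ran from -3.70 to -1.89 with 1 library left out. In Blank against NC, 20 to 25 members were lower and 22 to 28 higher under the alternatives. With 1 library left out, the log2 fold change ran from -1.61 to 0.14 for Add2 and from -1.68 to 0.14 for Fosl1, with both positive values without OTUB1_KD replicate 2 (adjusted p = 0.757 and 0.771), and the cause was not tested; 538 of 540 single-gene values in OTUB1_KD against NC stayed below 0. Median shares ran from 34.5% to 39.7%, 0.308% to 1.25% and 12.8% to 14.8% in OTUB1_KD replicates 1, 2 and 3. These ranges take in TMM-scaled CPM, TPM, the Blank mean in place of the NC mean, and only members of 20 CPM or more in NC.

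The replicate block gave 34 members lower in OTUB1_KD, with a median log2 fold change of -3.02, and 25 lower and 25 higher in Blank. Deviations of same-numbered libraries correlated between -0.0689 and 0.0793, and those of differently numbered libraries between -0.154 and 0.118. With 3 libraries per group this check cannot exclude a pairing, and the labels give only a number. At this depth 3 counts are about 0.17 CPM, and 37 members had 3 counts or fewer in OTUB1_KD replicate 2, so their levels there are not resolved.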
